A study of Gallus gallus and Columba livia with 18 samples.

Results

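Splicing factors and neural RNA-binding proteins were followed through the early development of the retina in 2 birds, Gallus gallus (chicken) and Columba livia (pigeon). The genes were chosen by name, as every row whose symbol begins with ELAVL, NOVA1, NOVA2, CELF, CUGBP, RBFOX, PTBP, MBNL, QKI, HNRNP, HNRPD, SRSF, SFRS, IGF2BP or KHDRBS, or is MSI1 or MSI2. This gave 92 of 41360 rows, with 47 of 24708 in the chicken table and 45 of 16652 in the pigeon table. The retinas came from embryos at 3 stages, called E3 (day 3 to 3.5), E5 (day 5 to 5.5) and E8 (day 8 to 8.5). Each species and stage had 3 libraries, 18 in all, and a library held the RNA of 1 to 6 whole retinas from embryos grown at 37 °C. The labels name no strain, treatment or manipulation, and species and stage are the differences between groups that they give. The tables give 1 pooled value per gene and stage, so no value below has a spread between replicates and no difference could be tested.

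The proteins studied here choose which exons stay in a messenger RNA and control where, when and how well that RNA is used. The heterogeneous nuclear ribonucleoproteins (HNRNP genes) and the serine and arginine rich factors (SRSF genes, formerly SFRS) act in nearly all cells, the former often as repressors and the latter often as activators of exon use. Neural families such as ELAVL, NOVA, RBFOX and neuronal CELF proteins set the splicing and stability of transcripts needed for axons and synapses. In mammalian neurons PTBP1 gives way to its relative PTBP2, while MSI, IGF2BP and QKI proteins are known for roles in stem or progenitor cells and embryonic growth.

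Levels are FPKM, the authors' count of fragments divided by transcript length and by the mapped fragments, as given in the authors' tables. A change is a difference of log2(FPKM + 1) between stages, a scale that understates the change of low genes. Rows were compared when they reached an FPKM of 1 at 1 stage or more and were above 0 at both stages of the comparison. A change of 1 or more in size was counted as past the threshold, and it has no replicate check. Of the rows studied, 46 chicken and 45 pigeon rows reached an FPKM of 1, and 21 chicken and 27 pigeon rows stood at 100 or more at all 3 stages. The tables were scaled separately, so levels are compared within a species and species are set side by side through their changes.

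The genes were put into 4 classes by their known roles, a choice made with earlier results of these data known. The neural class (ELAVL2, ELAVL4, NOVA1, CELF4, CELF5, CELF6, RBFOX1, PTBP2, KHDRBS2 and KHDRBS3) has 10 chicken rows. The progenitor or embryonic class (PTBP1, MSI1, MSI2, IGF2BP1, IGF2BP2, IGF2BP3 and QKI) has 7, and a broad class (CELF2, RBFOX2 and the MBNL genes), whose members act in several tissues, has 5. The remaining 25 chicken rows, made up of the hnRNP and SR proteins with ELAVL1, CELF1, PTBP3 and KHDRBS1, are the general class.

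Several pigeon rows share 1 symbol, and the name alone does not say which family member such a row is. The pigeon table lists ELAVL1 and IGF2BP3 in 3 rows each, and PTBP2 in 2. Each pigeon row was therefore also matched to the chicken gene whose neighbours on the chromosome it shares, a step chosen after the values were seen. Of the 45 pigeon rows, 43 had a match, 34 of them to the gene they are named for and 9 to another gene. Among other pigeon symbols that could be resolved, 5219 of 5293 (98.6%) matched the gene they are named for. That check took symbols listed once, so it does not cover repeated names, and left out 263 that were not resolved. A row could match only genes whose symbols begin with the same letters, and a tie could fall to its own name. The ELAVL1 row on scaffold510 lies beside BEND5, CDKN2C, DMRTA2 and FAF1, the neighbours of chicken ELAVL4. The ELAVL1 row on scaffold9 lies beside LPAR1, MUSK, TMEM215 and TOPORS, the neighbours of ELAVL2, and the third, on scaffold83, has ELAVL1's own. The PTBP2 row on scaffold393 has the neighbours of PTBP1, among them POLRMT and HCN2, and that on scaffold7 has those of PTBP2. The IGF2BP3 rows on scaffold265 and scaffold80 have the neighbours of IGF2BP1 and IGF2BP2, and that on scaffold486 has IGF2BP3's own. Below, such rows carry both names. With this match the pigeon classes hold 6 neural, 7 progenitor, 5 broad and 27 general rows, against 5, 6, 5 and 29 by the table's own symbols.

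From E3 to E5 none of the rows studied was past 1 in either species. In the chicken 46 rows were compared, and over all 14490 compared chicken rows 1.97% were higher and 1% lower by that much. In the pigeon 44 rows were compared, against 1.51% higher and 1.36% lower among all 11948. From E5 to E8 the chicken had 4 rows higher and 0 lower, where 4.53% of all chicken rows were higher and 4.46% lower. The 4 were ELAVL4, ELAVL2, KHDRBS2 and CELF4, all of the neural class, which had 9 compared rows, while 0 of the 37 other rows were past 1. The net change from E3 to E8 gave the same 4 genes, with 6.65% of all rows higher and 5.29% lower. CELF4 reached an FPKM of 1 at E8 alone, so it entered the comparison through the stage at which it was high, and among neural genes already at 1 at E3 the count was 3 of 8.

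In the pigeon 2 rows were higher and 1 was lower by at least 1 from E5 to E8, against 8.04% and 7.25% of all pigeon rows. The higher rows were the ELAVL1 rows with ELAVL4 and with ELAVL2 neighbours, and the lower row was the IGF2BP3 row with IGF2BP1 neighbours. The same rows were past 1 from E3 to E8, against 9.39% of all rows higher and 8.58% lower. Set against 44 compared rows, the pigeon counts are below the shares of its table in each direction. They leave out pigeon rows of the same families under older names, some past 1 and some not, which are given under other observations. No deficit is therefore read from the pigeon counts. The 4 higher rows of 46 in the chicken include CELF4, which passed the filter through E8 alone, and a pseudocount of 5 left 2 higher rows, so no excess over the table is read from them.

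A smaller change of 0.5 showed how far the remaining rows moved. From E3 to E5, 0 chicken rows were that much higher or lower, where 7.61% of all chicken rows were higher and 4.49% lower, and the pigeon had 2 higher and 0 lower, where 6.38% and 6.17% were. From E5 to E8 the chicken had 6 rows higher and 4 lower, against 13.4% and 12.7% of all rows, and all 6 were neural. CELF4 was among them, and of the 8 neural genes already at an FPKM of 1 at E3, 5 were that much higher. The pigeon had 13 higher and 5 lower, against 20.6% and 20.5%. Over the net course the chicken had 7 higher and 6 lower, against 16.8% and 15.1%, and the pigeon 15 higher and 6 lower, against 22.6% and 21.6%. All 25 general chicken rows stayed within 0.5 in each comparison, while 5 of the 27 general pigeon rows, classed by neighbours, were higher by at least 0.5 from E5 to E8.

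Neural genes had the highest class median in both species for the step from E5 to E8. In the chicken the median change of neural genes was -0.03 in the first step, to E5, and 0.67 in the second, to E8. That of general factors was -0.04 and -0.05. Among the 8 neural genes already at an FPKM of 1 at E3, which leave out CELF4, the medians were -0.05 and 0.60. The sign of the general median hung on the scaling, with 0.05 from E5 to E8 after quantile normalisation. The progenitor class had medians of -0.14 and -0.20, and the broad class 0.00 and -0.48. In the pigeon, with rows classed by neighbours, neural rows had medians of 0.09 and 0.95, general rows 0.00 and 0.01, and progenitor rows -0.14 and -0.57. By the table's own symbols the pigeon medians were 0.80 for neural rows and 0.13 for general rows from E5 to E8. Over all compared rows of either table the median lay within 0.01 of 0 in each step. From E5 to E8 the change was above 0 in 6 of 6 pigeon neural rows by neighbours and in 8 of 9 chicken neural rows. Of the 8 chicken neural rows already at an FPKM of 1 at E3, it was above 0 in 7. By the table's own symbols it was above 0 in 4 of 5 pigeon neural rows. The pigeon class lacks CELF4, CELF5, CELF6 and RBFOX1, whose neighbours there belong to rows under older names. Neural medians and counts of the species thus cover different genes.

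**Figure D1:**
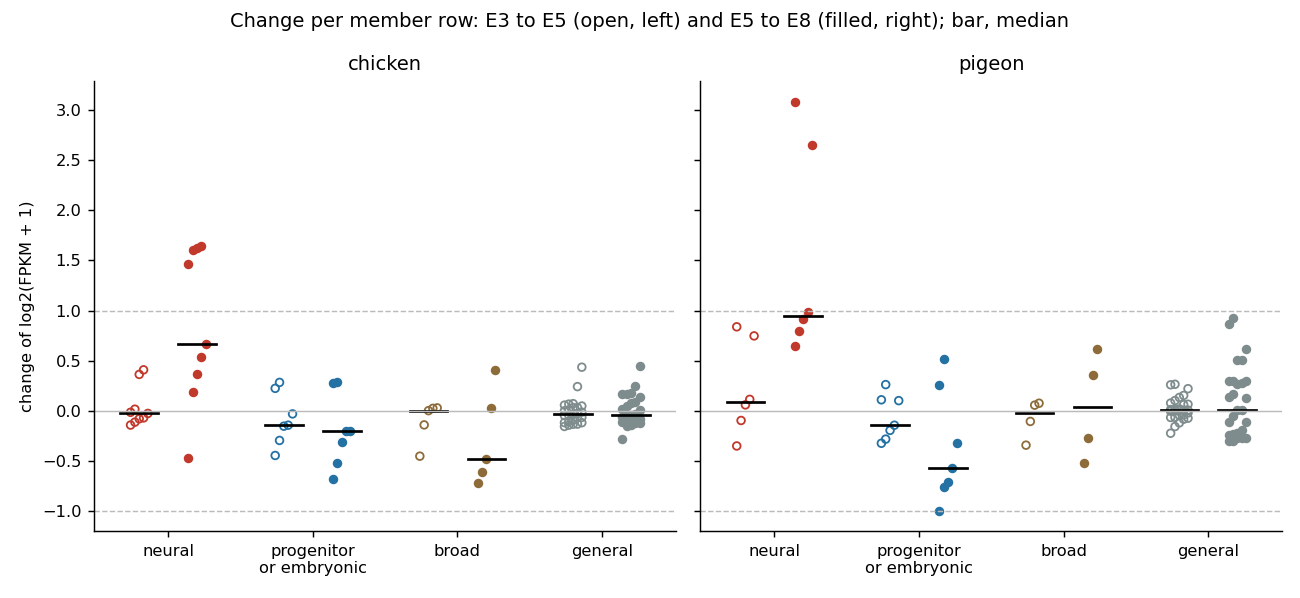
Change of log2(FPKM + 1) for each compared row, by class, in chicken (left) and pigeon (right), with pigeon rows classed by their neighbours. Open points are E3 to E5, filled points E5 to E8, black bars medians, and dashed lines mark a change of 1. Chicken neural genes have a median of 0.67 and chicken general factors -0.05 from E5 to E8. The 8 chicken neural genes already at an FPKM of 1 at E3 have a median of 0.60.

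Because these are whole retinas, more cells of a type and more RNA per cell cannot be told apart. A list of neuronal markers stood higher over the same stages. In the chicken 12 of 15 listed neuronal genes were compared, and their summed FPKM went from 166 at E3 to 310 at E5 and 766 at E8, with STMN2 at 7.95, 34.5 and 182. In the pigeon the 7 markers found summed to 63.0, 97.9 and 624, and NRN1 was listed at 0 at E3. The median change of the neuronal markers from E3 to E5 was 1.20 in the chicken and 0.87 in the pigeon. In that step the neural genes studied had medians of -0.03 and 0.09. From E5 to E8 the marker medians were 1.77 and 2.465, beside 0.67 and 0.95 for the neural genes. The part of neuron number in the change of the neural genes was not tested. Retinal progenitor markers such as SOX2, PAX6 and SIX6 were present throughout. In the chicken 11 of them summed to 5327, 6155 and 6358, and in the pigeon 7 summed to 2847, 2925 and 3737. FABP7 alone had 3611, 4452 and 4292 of the chicken sum, and CCND1 had 226, 286 and 740 of the pigeon sum. From E3 to E8 the change was above 0 in 8 chicken genes and below 0 in 3, LHX2, NES and PAX6. In the pigeon it was above 0 in 6 and below 0 in 1, PAX6.

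Markers of tissues around the retina were also present, and most were lowest at E8. Erythroid genes summed to 799, 1927 and 124 in the chicken and to 3568, 1427 and 95.9 in the pigeon. Pigment epithelium genes summed to 66.6, 251 and 22.8 in the chicken and to 185, 206 and 108 in the pigeon. Chicken PMEL was at 0 at all 3 stages, chicken TTR at E3 and E8, and pigeon MLANA at E8. SLC24A5 alone had 103 of the pigeon sum at E8, and the median change of 5 compared pigeon genes from E5 was -3.33. Mesenchymal genes summed to 210, 302 and 290 in the chicken and to 188, 155 and 11.2 in the pigeon. FBN1 alone had 276 of the chicken sum at E8, and the median change of 9 compared chicken genes from E5 was -1.71. Endothelial genes gave 45.9, 63.8 and 38.8 in the chicken and 52.6, 34.3 and 6.46 in the pigeon. Lens genes gave 654, 739 and 57.3 in the chicken and 11.2, 8.48 and 15.0 in the pigeon. CRYAB alone had 12.5 of the pigeon sum at E8, and the median change of 3 compared pigeon genes from E5 was -0.33. Muscle and leukocyte genes gave 40.9 or less in either species. Pigeon MYOG was at 0 at all 3 stages, MYOD1 at E3 and E5, and MYF6 at E8. The part of these tissues in the results was not tested.

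The ELAVL family held the largest changes. ELAVL2 and ELAVL4 (HuB and HuD) are neuronal proteins that bind AU-rich elements and stabilise or alter the splicing of their targets, while ELAVL1 (HuR) is found in nearly all cells. Chicken ELAVL4, on chromosome 8 from 24301112 to 24359936, had an FPKM of 23.5 at E3, 31.5 at E5 and 100.8 at E8. Chicken ELAVL2, on chromosome Z from 65979560 to 66027306, had 1.92, 2.76 and 10.4. Chicken ELAVL1 had 182, 178 and 196, a row that joins the gene with a second Ensembl identifier. The neuronal genes were highest at E8, ELAVL2 from a low level and ELAVL4 from a moderate one, while ELAVL1 differed little between stages. The changes from E5 to E8 were 1.65 for ELAVL4 and 1.60 for ELAVL2, after 0.41 and 0.36 from E3 to E5, and 0.13 for ELAVL1.

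Pigeon rows of the family had the same order. The row with ELAVL4 neighbours (scaffold510, 2132426 to 2170028) had an FPKM of 15.0, 25.8 and 226. The row with ELAVL2 neighbours (scaffold9, 1089235 to 1137905) had 1.66, 3.75 and 28.9, and its E3 value was 10.3 times the smallest nonzero value among gene models of like length, a stand-in for depth. The row with ELAVL1 neighbours had 351, 353 and 429. Both of the rows that differed most thus lay away from the neighbours of the gene they are named for. From E5 to E8 the log2 changes were 3.09 and 2.65 for the former rows and 0.28 for the last, and over the net course the former stood 15.1-fold and 17.4-fold higher in FPKM. The sum of ELAVL2 and ELAVL4 over ELAVL1 was 0.140, 0.192 and 0.569 in the chicken and 0.0474, 0.0835 and 0.595 in the pigeon. In each species ELAVL4 stood above ELAVL2 at every stage, at 12.2 times its FPKM at E3 and 9.67 times at E8 in the chicken, and 9.02 and 7.85 times in the pigeon.

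**Figure D2:**
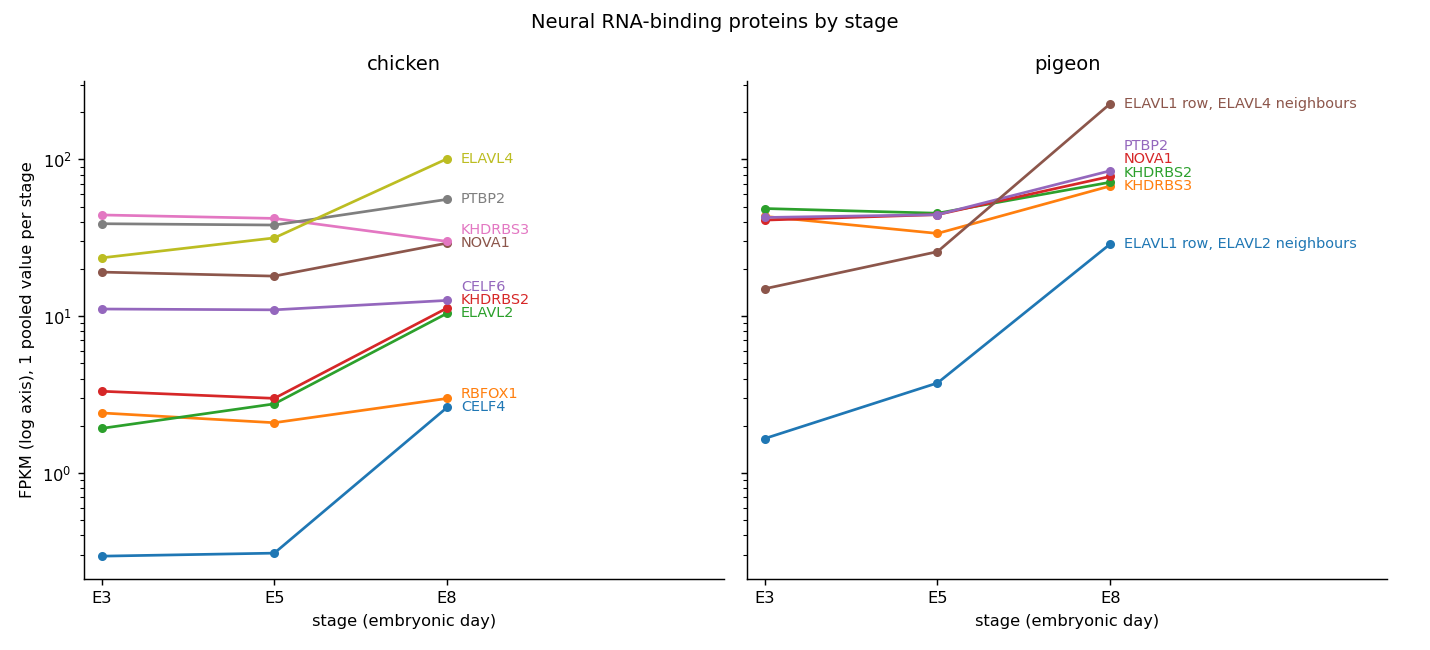
FPKM (log axis) of the neural genes at E3, E5 and E8, 1 pooled value per stage, in chicken (left) and pigeon (right, rows by their neighbours). Chicken ELAVL4 goes from 23.5 to 100.8 and chicken KHDRBS3 from 44.2 to 30.0. The pigeon ELAVL1 row with ELAVL4 neighbours goes from 15.0 to 226. Chicken CELF5, listed at 0, is not drawn.

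The polypyrimidine tract binding proteins repress exons, PTBP1 in progenitors and many other cells and PTBP2 in neurons. Chicken PTBP1, on chromosome 28 from 2286056 to 2313979, had 167, 150 and 131. Chicken PTBP2, on chromosome 8 from 13640541 to 13674010, had 38.9, 38.1 and 55.6. PTBP1 was lowest and PTBP2 highest at E8, with PTBP1 still above PTBP2. Their net changes were -0.35 and 0.50, neither past 1, and PTBP3 stayed between 1.75 and 1.88. In the pigeon the PTBP2 row with PTBP1 neighbours (scaffold393, 217457 to 226994) had 246, 222 and 131. The pigeon PTBP2 row with its own neighbours (scaffold7, 3073860 to 3111934) had 42.6, 44.4 and 84.6. These rows carry 1 symbol and went opposite ways, by -0.90 and 0.97 from E3 to E8. The ratio of PTBP2 to PTBP1 was 0.232, 0.254 and 0.425 in the chicken and 0.173, 0.1996 and 0.645 in the pigeon. Most of that difference lay between E5 and E8.

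**Figure D3:**
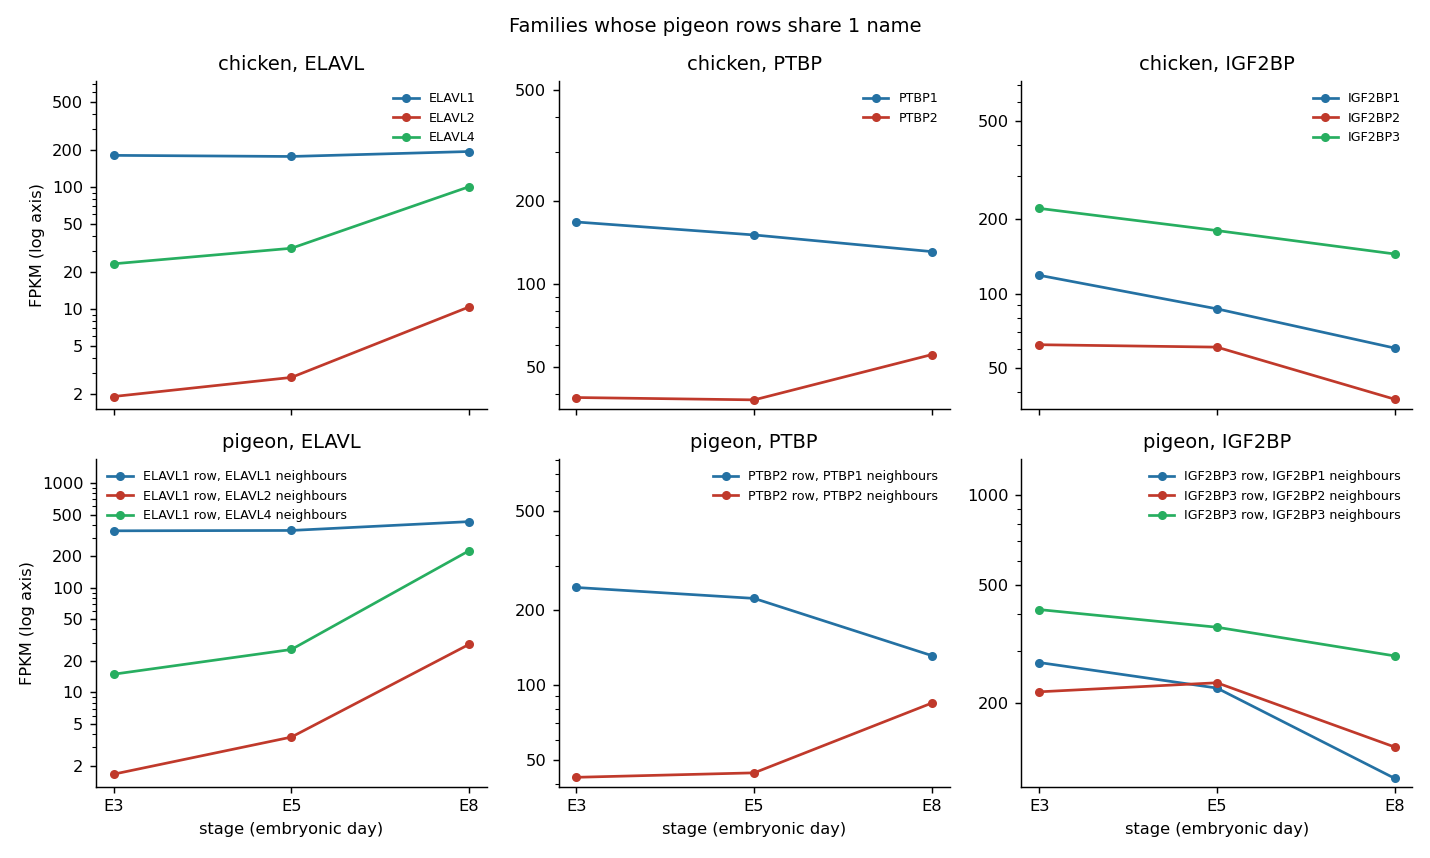
FPKM (log axes, own range per panel) of the ELAVL, PTBP and IGF2BP families at E3, E5 and E8 in chicken (top) and pigeon (bottom), 1 pooled value per stage. In the pigeon the lines of a panel carry 1 symbol in the table and are told apart by their neighbours. The pigeon PTBP2 row with PTBP1 neighbours goes from 246 to 131 and the row with its own neighbours from 42.6 to 84.6.

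NOVA1 directs exon choice in neuronal transcripts and in mammals is almost confined to the nervous system. Chicken NOVA1 had an FPKM of 19.1, 18.005 and 29.2, and pigeon NOVA1 had 41.0, 44.4 and 77.8. E8 was the highest stage in both, with net changes of 0.59 and 0.91 that stayed under 1.

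CELF proteins bind GU-rich RNA, and CELF4 and CELF6 are mostly neural while CELF1 and CELF2 are wider. Chicken CELF4 had 0.295, 0.308 and 2.62, which is a low level at each stage. Chicken CELF6 had 11.1, 10.97 and 12.6, and CELF5 was listed at 0 at all stages. So were genes that nearly every cell uses, among them PRPF19 and SNRNP200 of the spliceosome, so a 0 in this table need not mean that a gene is silent. Of the CELF genes of the neural class in the chicken, CELF4 was past 1 from E5 to E8, at 1.47, and CELF6 differed by 0.18. The CELF4 change came from a low level and was 0.52 with a pseudocount of 5. CELF1, of the general class, differed by 0.01. Chicken CELF2 had 59.8, 61.0 and 81.2, in a row that joins it with a second identifier, and pigeon CUGBP2-1, an older name of CELF2, had 81.4, 84.6 and 129.8. CELF1 had 21.3, 19.5 and 19.6 in the chicken and, as CUGBP1, 20.8, 17.7 and 17.0 in the pigeon. The pigeon row CUGBP2-2, a model of 120 bases, was at 0, 0 and 72.3. That last value is only 2.01 times the smallest nonzero value for its length, and the row was left out of the changes.

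RBFOX proteins bind UGCAUG near regulated exons, RBFOX1 chiefly in neurons and muscle and RBFOX2 more widely. Chicken RBFOX1 had 2.42, 2.09 and 2.99, with a net change of 0.22. Chicken RBFOX2 had 12.01, 10.8 and 6.16, with a net change of -0.86. In the chicken the neuronal gene thus stayed low and near its first level, and the wider one was lowest at E8. Of all broad and general chicken rows, RBFOX2 had the largest decrease from E5 to E8, at -0.72.

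KHDRBS2 and KHDRBS3 (SLM1 and SLM2) are relatives of the signalling protein SAM68, which KHDRBS1 encodes, and in the mouse brain they direct splicing of neurexin transcripts. Chicken KHDRBS2, on chromosome 3 from 88870499 to 89181861, had 3.32, 2.99 and 11.3. Chicken KHDRBS3 had 44.2, 42.0 and 30.0, and KHDRBS1 had 106, 112 and 105. From E5 to E8 KHDRBS2 was higher by 1.62 while KHDRBS3 was lower by 0.47 on the log2 scale, so these neural relatives differed in direction. Chicken KHDRBS3 was the neural gene with a decrease among the 9 compared. Pigeon KHDRBS2 had 48.6, 45.3 and 71.4, and pigeon KHDRBS3 had 43.3, 33.7 and 67.6. Both pigeon genes were highest at E8, with changes of 0.65 and 0.98 from E5.

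MBNL proteins bind YGCY motifs and drive the shift from fetal to adult exon patterns in muscle and brain. Chicken MBNL1 had 24.1, 24.1 and 15.4, MBNL2 had 9.25, 6.49 and 6.65, and MBNL3 had 7.40, 7.54 and 5.10. Pigeon MBNL1 had 28.6, 22.3 and 15.3, MBNL2 had 5.93, 6.30 and 8.32, and MBNL3 had 24.9, 23.1 and 18.9. Chicken net changes were between -0.61 and -0.42. Pigeon MBNL1 and MBNL3 were lower by 0.86 and 0.38, and MBNL2 was the exception at 0.43. No MBNL gene was past 1.

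Musashi proteins repress translation of chosen transcripts in neural stem and progenitor cells. Chicken MSI1 had 129.5, 151 and 183, and MSI2 had 74.0, 90.2 and 110.1. Pigeon MSI1 had 293, 317 and 454, and MSI2 had 112, 135 and 162. All were higher at each later stage, by 0.50 to 0.63 over the net course, which sets them apart in direction from the other progenitor genes described here.

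IGF2BP proteins bind and protect growth-related messages, among them those of IGF2 and MYC, and are known as embryonic proteins. Chicken IGF2BP1, on chromosome 27 from 3407458 to 3435296, had 119, 86.9 and 60.3. IGF2BP2 had 62.2, 60.8 and 37.4, and IGF2BP3 had 222, 180 and 145. The order IGF2BP3, IGF2BP1, IGF2BP2 held at each stage, and the sum was 403, 328 and 243. Net changes were -0.97, -0.72 and -0.61 for IGF2BP1, IGF2BP2 and IGF2BP3, none past 1, although median-ratio scaling put IGF2BP1 just past the threshold. In the pigeon the IGF2BP3 row with IGF2BP1 neighbours (scaffold265, 1401723 to 1420890) had 274, 225 and 112. The row with IGF2BP2 neighbours had 218, 234 and 143, and the row with its own neighbours had 413, 360 and 288. The 3 pigeon rows summed to 905, 819 and 543. The row with IGF2BP1 neighbours was lower by 1.00 on the log2 scale from E5 to E8, a call that was lost at -0.99 after median-ratio scaling, and its net change was -1.28 and stayed past 1 under each scaling and pseudocount tried. In both species the IGF2BP1 gene thus had the largest net decrease of the family, with 46.2% of it reached by E5 in the chicken and 22.1% in the pigeon on the log2 scale.

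QKI, a STAR protein of glia and neural progenitors, had 112, 102 and 88.1 in the chicken and 199.8, 159 and 107 in the pigeon. Its net changes were -0.35 and -0.90. The progenitor class therefore divided in each species into MSI1 and MSI2, which were higher at E8, and the other 5 genes, which were lower.

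The hnRNP proteins package nascent transcripts, and they were among the most abundant messages studied. In the chicken 11 HNRNP rows had a summed FPKM of 5762, 5553 and 5470. They stood between percentiles 96 and 99.2 at E3 among chicken rows that reached an FPKM of 1. HNRNPAB was the highest at E3 and E5, with 918, 836 and 759 over the stages. Close to it were HNRNPA3 at 863, 787 and 881, the highest at E8, and HNRNPA2B1 at 817, 817 and 841. All 11 stayed within 0.5 in each step. The largest increase of the general class from E3 to E5 was HNRNPA0, with 202, 273 and 251 and a change of 0.43, and its largest decrease from E5 to E8 was HNRNPH1, with 657, 636 and 523 and a change of -0.28. The HNRNPM row, at 450.3, 407 and 395, also carries the name TIMM44 and cannot be split between those genes. The HNRNPA3, HNRNPU and HNRNPH1 rows span 304374, 367740 and 167206 bases, and reads of neighbouring genes could not be told apart from theirs.

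Pigeon HNRNP rows summed to 8171, 8038 and 7966 over 11 rows. Rows named alike had different neighbours here too. The HNRNPAB row on scaffold28, with HNRNPDL neighbours, had 1142, 1144 and 1622, a change of 0.50 from E5 to E8. The HNRNPAB row on scaffold79 with its own neighbours had 1246, 1145 and 950, a change of -0.27. The HNRNPH3 row with HNRNPH1 neighbours had 1375, 1379 and 1115, and the HNRNPH3 row with its own had 1141, 1137 and 1146. One HNRNPR row had the neighbours of SYNCRIP, a close relative of HNRNPR, with 274, 260.3 and 320.5. HNRNPC, which had no match by neighbours, had 246, 295 and 249. HNRNPA0, also without a match, had 416, 397 and 330. Its change from E3 to E5 was -0.07, beside 0.43 for chicken HNRNPA0. Such paralogs are alike in sequence, and no source used here gives how reads that fit several of them were counted, so single values in this family are uncertain.

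The SR proteins were also steady in the chicken. SRSF3 had 548, 566 and 508, SRSF1 had 456, 458 and 443, and SRSF6 had 337, 353 and 334. The 10 SRSF and SFRS rows of the chicken stayed within 0.5 in each step, with the largest change in SFRS18 (PNISR), at 96.2, 95.3 and 130.2 and a change of 0.45 from E5 to E8. SFRS13A (SRSF10) had 94.9, 90.4 and 107.5, and SRSF4 had 25.0, 25.6 and 29.0. SFRS5 had 100.1, 118 and 133, and a separate row named SRSF5A had 201, 180 and 177, so the course of chicken SRSF5 depends on which row is read. In the pigeon SFRS5 stood at 474, 499 and 946 and SFRS18 at 157, 169 and 308. SFRS12 (SREK1), a splicing regulator that binds other SR proteins, had 65.1, 65.9 and 101.8, and SFRS17A (AKAP17A) had 38.9, 43.3 and 61.9. These 4 pigeon rows were highest at E8, with changes of 0.92, 0.86, 0.62 and 0.51 from E5, while SFRS3 had 738, 741 and 686 and SFRS6 had 978, 949 and 953. SFRS4 went the other way from E5, at 19.2, 23.3 and 18.6, and SFRS12IP1 (SREK1IP1), a short model of 189 bases, had 68.4, 79.8 and 98.2. The SFRS10 rows, with the neighbours of TRA2B and TRA2A, had 550.5, 493 and 541 and 244, 255 and 307. None was past 1, though the net change of SFRS5, at 1.00 just under the threshold, became 1.04 after quantile normalisation. The 14 pigeon SFRS rows had a median change of 0.04 and then 0.20.

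**Figure D4:**
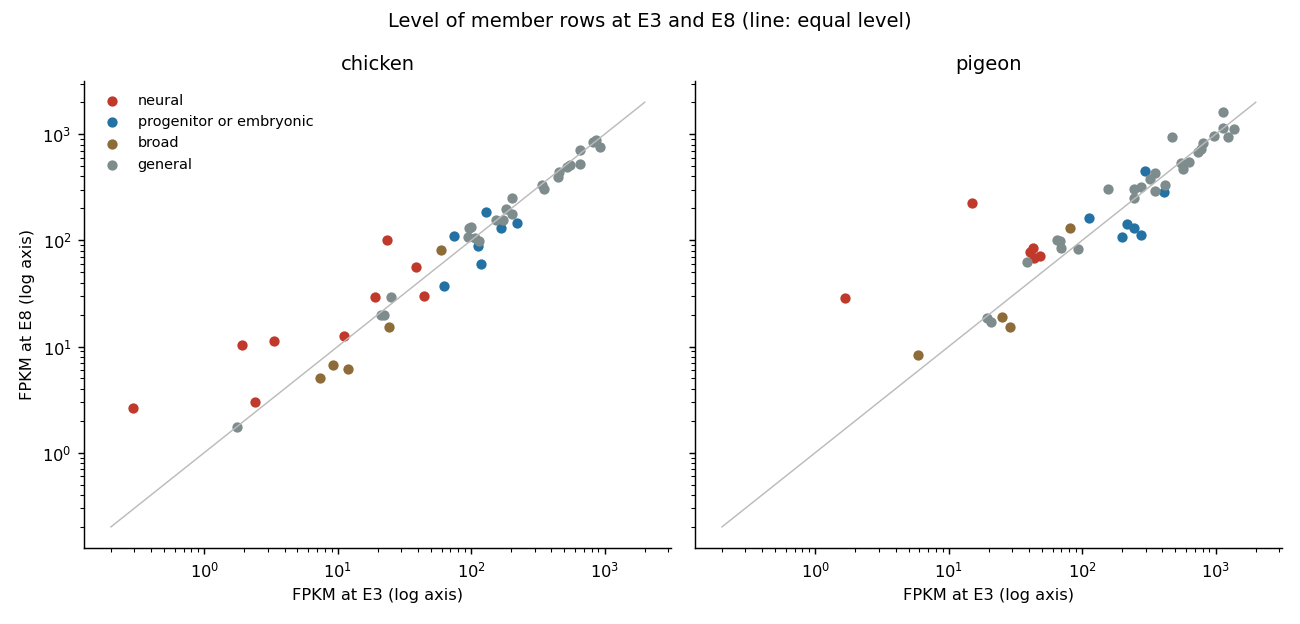
FPKM at E8 against FPKM at E3 (log axes) for each row above 0 at both stages, coloured by class, in chicken (left) and pigeon (right, rows by their neighbours), where the line marks an equal level. General factors reach 1622 at E8 in the pigeon, where 21 of 27 have a net log2 change within 0.5 and 6 lie higher. Among the 6 are SFRS5 (474 to 946) and the row at 1622 (from 1142). ELAVL2 and ELAVL4 lie further above the line in both species.

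The rest of the splicing machinery was read from lists of other genes. Of 70 core spliceosome genes, 42 chicken and 47 pigeon genes were compared, and 0 were past 1 in any step in either species. Over all compared rows from E5 to E8, 4.53% of chicken rows were higher and 4.46% lower by that much. In the pigeon 8.04% and 7.25% were. The chicken medians were -0.04 and -0.09 and the pigeon medians 0.04 and -0.03 for the successive steps. Accessory factors and kinases (20 chicken and 11 pigeon genes, SREK1 and SFSWAP of the pigeon being members too) likewise had 0 past 1. The list of other RNA-binding proteins held genes past 1 in each direction. From E5 to E8, 6 of 39 compared chicken genes were higher by at least 1 and 1 was lower. In the pigeon 2 of 19 were higher and 1 lower. With the shares above and lists this small, no excess over the table is read from these counts. SRRM4 (nSR100), the activator of neural microexons, had 1.75, 6.67 and 25.2 in the chicken and 10.5, 20.2 and 108 in the pigeon. SRRM3, its relative, had 0.292, 1.65 and 7.52 in the chicken and 0.613, 1.46 and 11.7 in the pigeon. Both were higher at each later stage, and chicken SRRM4 and SRRM3 were past 1 from E3 to E5, at 1.48 and 1.03. SRRM3 was below an FPKM of 1 at E3 in both species, so it entered the comparison through the stages at which it was higher. None of the ELAVL, NOVA, PTBP, CELF or KHDRBS rows chosen here was past 1 from E3 to E5. Pigeon SRRM4 and SRRM3 were not either, at 0.89 and 0.61. The pigeon ELAVL1 rows with ELAVL2 and ELAVL4 neighbours stood near them, at 0.84 and 0.75. In the other direction LIN28A, an embryonic protein that blocks let-7 maturation, had 13.7, 1.23 and 0.111 in the chicken, and LIN28B had 68.5, 30.6 and 15.2. Among the remaining chicken genes past 1 were RBPMS2, a ganglion cell marker in mammals, at 4.19, 5.27 and 16.1, RALY at 11.3, 12.1 and 32.0, and RBM38 at 33.5, 53.3 and 110.7. In the pigeon CPEB1, a regulator of poly(A) tails, had 6.89, 5.36 and 1.97, ESRP2, an epithelial splicing regulator, had 15.4, 10.7 and 6.54, and RBM24 had 64.7, 87.4 and 165.

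Set side by side, 33 genes could be paired between the species, by neighbours and, for HNRNPA0, by name. The pigeon change minus the chicken change was past 1 in 0 pairs from E3 to E5, in 3 for the later step and in 3 for the net course. Among 5499, 5480 and 5474 pairs of all symbols listed once in both tables, 2.67%, 8.28% and 10.3% were past 1 in either direction. Set against 33 pairs, the counts lie near these shares, so no excess over the table is read from them. The 3 genes were ELAVL4, ELAVL2 and KHDRBS3, with differences of 1.44, 1.05 and 1.46 from E5 to E8. For ELAVL4 and ELAVL2 both species were higher at E8 and the pigeon change was the larger. Such a difference was not particular to these genes. Of the neuronal markers compared in both species, GAP43, ISL1, SNAP25 and SNCG also had the larger pigeon change from E5 to E8. SYT4 and NRN1 had the larger chicken change. For KHDRBS3 the directions differed, at 0.98 in the pigeon and -0.47 in the chicken. KHDRBS2 was nearly as far apart the other way, with 0.65 in the pigeon and 1.62 in the chicken, a difference of -0.97. PTBP1 had -0.76 in the pigeon against -0.20 in the chicken, and PTBP2 0.92 against 0.53. With the 19 symbols listed once in both tables the count past 1 was 0, 1 and 1, the gene being KHDRBS3, since the ELAVL rows of the pigeon share a symbol. The change had the same sign in 21, 27 and 26 of the 33 pairs in these 3 comparisons, taken in the same order. Among the 19 symbols listed once the counts were 12, 14 and 14. No such count was made over all symbols, so no likeness particular to these genes is read from it. None of these differences has a replicate check.

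**Figure D5:**
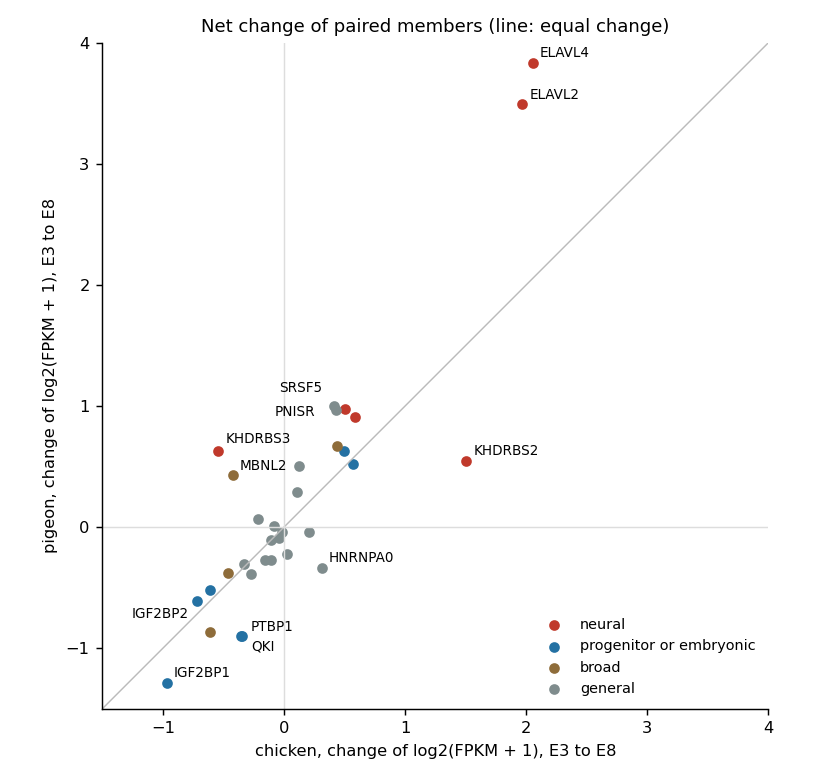
Change of log2(FPKM + 1) from E3 to E8 in the pigeon against that in the chicken for the 33 paired genes, coloured by class, where the diagonal marks an equal change. ELAVL4 (2.05 in chicken, 3.83 in pigeon) and ELAVL2 (1.97 and 3.49) lie above the diagonal, KHDRBS2 (1.51 and 0.55) below it, and KHDRBS3 (-0.55 and 0.63) in the quadrant of opposite signs.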

How the data were processed

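Messenger RNA of 18 retina libraries was measured, 3 for each of 2 species at 3 stages. Per the labels' protocols, Trizol was used for extraction and stranded TruSeq libraries were made from 1 µg of RNA. TopHat2, Bowtie2, Cufflinks and Cuffdiff were used, per the submitters' processing notes. No source used here names the genome builds. The authors' deposited unit is FPKM, with 1 pooled column per stage in each of 2 tables, so limma across libraries could not be used and no replicate could be compared. Read depth is not given. As a stand-in, pigeon values were divided by the smallest nonzero value among models within 2% of their length.

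Changes of log2(FPKM + 1) were computed with pandas 2.3.3 for rows that reached an FPKM of 1 at any stage and lay above 0 at both compared stages, over each whole table. Changes of at least 1 in size were counted. The counting was checked on copies of the higher values with large known changes put in. That check covers the arithmetic alone, since it held no noise, no low values and no changes near the threshold. Older symbols were brought to 1 name. Neighbours were taken from the order of RefSeq genes of the chicken (GRCg7b), whose coordinates were used only to set that order. A pigeon row was matched to the chicken gene sharing most of the 10 named genes on each side, and at least 2. Candidates were the chicken genes of these families and some related ones. Starts were converted to count from 1.

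The genes, classes and lists were chosen with earlier results of these data known. Genes were named when neural or progenitor, when among the 4 highest or lowest broad or general changes of a step, when past 1, or, in the other lists, past 1 with an FPKM of at least 5. Other hnRNP and SR genes were named as examples after their values were seen. Alternatives were pseudocounts of 0.1 and 5, other filters and scalings, a change of 0.5, symbols listed once, models of at least 300 bases and other classes.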

Additional observations from a re-analysis of the deposited data

Results flagged for a closer look

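KHDRBS3 went opposite ways in the 2 species between E5 and E8. Its FPKM was 43.3, 33.7 and 67.6 over the stages in the pigeon and 44.2, 42.0 and 30.0 in the chicken, and the pigeon change minus the chicken change was 1.46 from E5 to E8 and 1.18 from E3 to E8. With 1 pooled value per stage the difference was not tested. The gene is listed once in each table, and its pigeon row has the neighbours of chicken KHDRBS3. From E3 to E5 the change was below 0 in both species, at -0.35 in the pigeon and -0.07 in the chicken.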

How the results depend on the processing

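No paired analysis was possible because the tables hold 1 pooled value per stage, and for the same reason no replicate could be left out. With no spread between replicates, a value was taken as moved when it differed by over 1.5 times and by at least 0.1, and a count when it differed by over 1.5 times. A pseudocount of 0.1 gave 1 pigeon row higher from E3 to E5. A pseudocount of 5 gave 2 chicken rows higher from E5 to E8 and 2 from E3 to E8, since the changes of low genes shrink by construction (CELF4 to 0.52 and ELAVL2 to 0.99 from E5 to E8), and 0 pigeon rows lower from E5 to E8. Median-ratio scaling gave 0 pigeon rows lower from E5 to E8 and 1 chicken row lower from E3 to E8, and quantile normalisation gave 0 pigeon rows lower from E5 to E8 and a pigeon general median of 0.12 from E3 to E8. At a change of 0.5 the pigeon had 2 rows higher from E3 to E5, 13 higher and 5 lower from E5 to E8 and 15 higher and 6 lower from E3 to E8. The chicken had 4 lower from E5 to E8 and 7 higher and 6 lower from E3 to E8. With symbols listed once the pigeon had 0 rows higher and 0 lower by at least 1, both from E5 to E8 and from E3 to E8. Its general median from E5 to E8 was then -0.021. With CELF2, RBFOX2 and the MBNL genes counted as neural, the chicken neural median was 0.39 from E5 to E8 and 0.33 from E3 to E8. Pigeon rows classed by neighbours, chosen after seeing the data, gave a neural median of 0.086 from E3 to E5 and a general median of 0.011 from E5 to E8, and pairs by neighbours a median difference of 0.078 from E3 to E8. Beyond the changes that follow from the size of the pseudocount, the number of rows or the class, the cause was not tested. In all, 250 of these counts and medians kept their value within those limits and 26 did not, and for single genes 1849 did and 32 did not.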

Other observations

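The pigeon table also holds rows of the same families under older names that the choice of genes did not take in, and they were picked after their values were seen. The neighbours of the BRUNOL4 row on scaffold129 are those of CELF4, and its FPKM was 0.544 at E3, 0.922 at E5 and 9.99 at E8. The BRUNOL4 row with CELF3 neighbours had 3.52, 3.998 and 12.2, and that with CELF6 neighbours had 13.0, 13.6 and 17.7. Beside these lie TNRC4 rows of short models, with 0, 0.825 and 5.88 in a model of 369 bases near the CELF4 neighbours and 12.4, 28.8 and 21.6 in a model of 249 bases near those of CELF6. From E3 to E5 and then to E8 the latter differed by 1.16 and -0.40, unlike the BRUNOL4 row with CELF6 neighbours, at 0.06 and 0.36. BRUNOL5, with CELF5 neighbours, had 35.7, 33.2 and 28.3. These neuronal CELF rows thus had unlike courses, with the CELF4 and CELF3 rows highest at E8 and the CELF5 row lowest there.

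RBM9 is an older name of RBFOX2, and its row had 70.8, 55.0 and 29.9, a net log2 change of -1.21 beside -0.86 for chicken RBFOX2. The A2BP1 row with RBFOX1 neighbours had 2.11, 1.65 and 4.93. Its log2 changes were 1.16 from E5 to E8 and 0.93 from E3 to E8, beside 0.37 and 0.22 for chicken RBFOX1. The A2BP1 row with RBFOX3 neighbours had 1.68, 1.69 and 2.34. In the chicken, HNRNPK and SRSF7 stand second in rows that join several names and were not counted. The row that joins C9ORF64 with HNRNPK had 437, 440 and 402, and the row that joins GEMIN6 with SRSF7 had 201, 207 and 191.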
